A study of Mus musculus with 4 samples.

Results

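The genes described here are 31 mouse genes of cytokine signalling through Janus kinases: 4 kinases (Jak1, Jak2, Jak3, Tyk2), 6 STAT factors, 8 feedback inhibitors (7 SOCS genes and Cish), 8 interferon regulatory factors, interferon gamma (Ifng) and the 4 chains of its receptor and of the type I interferon receptor. They were taken by name from 54115 annotated genes, and all 31 had enough reads to be tested. They were measured by RNA-seq in MC38 tumours, which grow in a mouse after injection of MC38, a mouse colon adenocarcinoma cell line. The mice of both groups carried these tumours and received 10 daily intraperitoneal injections, of saline in one group and of vanoxerine at 25 mg/kg in the other. Vanoxerine blocks the dopamine transporter. Each group had 2 libraries of total RNA from snap-frozen tumours, while the sources used here give no strain, sex, age or number of animals behind a library.

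In this pathway a cytokine or interferon brings its receptor chains together, the Janus kinases bound to the chains phosphorylate each other and the receptor, and STAT factors that dock there are phosphorylated, pair and enter the nucleus. STAT pairs bind GAS elements, and the interferon-stimulated complex of STAT factors with Irf9 binds interferon-stimulated response elements, which other IRF factors also recognise. SOCS genes and Cish are among the targets that are switched on, and their proteins shut the receptor complex down. In tumours the same pathway carries the signals of interferon gamma from T and NK cells and those of many myeloid growth factors.

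The 4 libraries held 67289273 to 75748162 estimated reads. Libraries of 1 group differed by a median absolute log2 ratio of 0.10 in saline and 0.05 in vanoxerine. The labels do not say that they came from separate animals, so p-values measure only how far these libraries vary, and that variation may be technical. A bulk library mixes tumour and host cells: Epcam, Krt8, Krt18, Krt19, Krt20 and Vil1, which mark intestinal epithelium, lay between 0 and 4.22 CPM (counts scaled to the library size) in every library, Cdx2 was at 0 in all 4, and Cdh1 lay between 11.3 and 27.6 CPM. Summed, these 8 genes were at 16.9 and 19.7 CPM in saline and 35.6 and 37.2 CPM in vanoxerine. Of the 6 that were tested, 3 were called higher and 0 lower. All 10 macrophage markers were called higher in vanoxerine, with a summed level of 703 and 746 CPM in saline and 3816 and 3835 CPM in vanoxerine. The 8 T cell markers summed to 457 and 470 CPM against 393 and 377 CPM, and the 4 NK cell markers to 84.9 and 83.4 CPM against 131 and 126 CPM. Fibroblast markers (6 of 6), erythroid markers (4 of 4) and neutrophil markers (4 of 6) were called lower, with median log2 fold changes of -0.97, -1.31 and -0.90. All 4 mast cell markers were called higher (median 3.04), from a summed 20.3 and 20.2 CPM to 69.9 and 71.2 CPM. Of 5 endothelial markers 3 were called lower and 1 higher (median -1.05). The part of these shifts in the results below was not tested, and in bulk RNA fewer cells of a type and less RNA per cell cannot be told apart.

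Most genes of the pathway stood higher in vanoxerine tumours, and the ligand Ifng fell. Of the 31 genes, 20 were called higher and 1 lower (edgeR quasi-likelihood test, Benjamini-Hochberg adjusted p under 0.05 over 18758 genes), and 10 were not called. Among all genes tested, 21.0% were called higher and 15.9% lower. Under upper-quartile scaling the split over all genes turned from 3933 higher and 2983 lower to 2895 higher and 4525 lower, or 15.4% and 24.1%, and that over the pathway became 17 higher and 3 lower, with Stat2 and Irf3 added to Ifng. Both vanoxerine values lay above both saline values in 26 of the 31 genes and below them in 3, and the groups overlapped in the other 2, Socs2 and Socs7. Over all genes the shares were 35.8% above and 34.9% below. The median log2 fold change of the 31 was 0.47, against -0.01 over all genes. Upper-quartile scaling moved both medians down, to 0.34 and -0.14, and TPM (a level scaled to transcript length and library total) moved both up, to 0.66 and 0.13. By role, the test called 4 of 4 receptor chains higher, 3 of 4 kinases, 4 of 6 STAT factors, 6 of 8 IRF factors and 3 of 8 feedback inhibitors. Of the 20 genes called higher, 15 were called higher under each of 16 alternative settings. Among these settings, adjusted p under 0.1 in the same fit keeps every call by construction. An offset for transcript length gave the fewest, these 15 and Ifng, beside 13.9% higher and 9.09% lower among all genes. The other 5, named with their values below, are Stat6, Socs6, Irf2, Irf4 and Irf7.

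**Figure D1:**
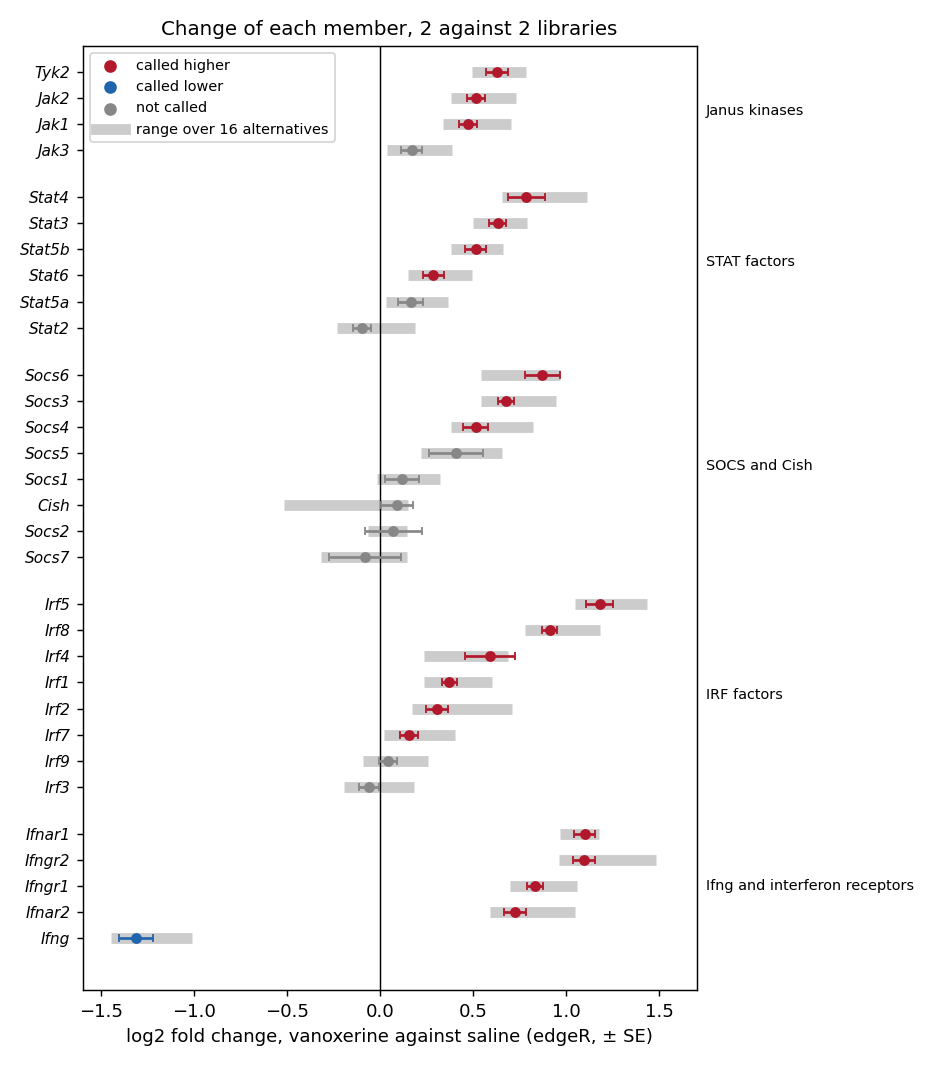
Log2 fold change of each of the 31 genes, vanoxerine against saline, with the SE from edgeR (points and bars, 2 against 2 libraries) and the range over 16 alternative settings (grey bands). Irf5, Ifnar1 and Ifngr2 are the 3 points above 1, Ifng alone lies below -1, and the bands of the uncalled genes Stat2, Socs1, Socs2, Socs7, Cish, Irf3 and Irf9 cross 0.

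Because STAT and IRF factors act on genes of their own pathway, the promoters were searched for their elements. Sequences came from RefSeq (GRCm38.p6), 250 bases before to 50 after the start of a transcript, and 27 of the 31 genes were matched there, with 33 promoters. Both strands were searched for TTCNNNGAA, the GAS element, for the same element with 4 bases between TTC and GAA, and for an ISRE core of GAAA followed after 2 bases by another GAAA. Where matches overlap, each was counted for its own motif. At least 1 of the 3 was present in 13 of the 33 promoters, and in 17.3% of 32851 promoters of the same length. The GAS element was present in 8 of 33 and in 8.30% of all, its wider form in 3 and in 6.95%, and the ISRE core in 4 and in 3.44%. Of the 13 genes with a match, 8 were called higher, 1 lower and 4 were not called, a split close to that of all 31 genes, of which 64.5% were called higher beside 21.0% of all genes tested. The stretches below, 5′ to 3′ on the strand of the gene with the matches in capitals, come from 5 genes called higher that carry 1 of the 3 motifs (Irf1, Irf8, Socs3, Ifngr2, Stat4), from Ifng, which fell, and from Socs1, which was not called.
Irf1 (chr11:53769899-53769957, plus strand): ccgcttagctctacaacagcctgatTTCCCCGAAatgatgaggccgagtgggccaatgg
Irf8 (chr8:120736162-120736238, plus strand): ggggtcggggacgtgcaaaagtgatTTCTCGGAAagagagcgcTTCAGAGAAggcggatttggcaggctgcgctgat
Socs3 (chr11:117969487-117969545, minus strand): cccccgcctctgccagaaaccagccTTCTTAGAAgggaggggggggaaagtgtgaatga
Ifngr2 (chr16:91546943-91547002, plus strand): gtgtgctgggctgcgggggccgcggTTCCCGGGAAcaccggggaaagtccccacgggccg
Stat4 (chr1:52008118-52008177, plus strand): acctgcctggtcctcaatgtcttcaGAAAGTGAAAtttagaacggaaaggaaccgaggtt
Ifng (chr10:118440796-118440830, plus strand): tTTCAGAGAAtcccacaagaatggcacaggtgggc
Socs1 (chr16:10785579-10785644, minus strand): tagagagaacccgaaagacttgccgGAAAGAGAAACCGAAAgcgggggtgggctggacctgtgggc
Irf1, Socs3, Ifngr2, Stat4 and Ifng have 1 match each, Irf8 has 2 GAS elements, and Socs1 has 2 ISRE cores that share 4 bases. All of these stretches lie before the start, for example 57 to 115 bases before it in Irf1, 43 to 108 in Socs1 and 216 to 250 in Ifng. A match describes these letters and shows no binding.

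Ifng, the secreted ligand made by activated T and NK cells, was the 1 gene of the pathway called lower. In saline its level was 28.9 and 31.4 CPM, in vanoxerine 12.6 and 11.6 CPM, so every vanoxerine library was below every saline one. The log2 fold change was -1.31 ± 0.09 (SE, adjusted p = 0.000203, edgeR), a level 2.48-fold lower, and it was called lower under all 16 alternatives. The annotation places Ifng at chr10:118441046-118445892 (GRCm38), where 336 of its exon bases also belong to a predicted gene, Gm49751, which held 31 to 89 reads in a library. Of the 8 T cell markers 1 was called higher (Cd4), 3 were called lower and 4 were not called, with log2 fold changes from -0.60 for Cd8b1 to 0.96 for Cd4 and a median of -0.25. Of the 4 NK cell markers 3 were called higher. The part of either cell type in the change of Ifng was not tested.

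All 4 receptor chains rose. Ifngr1, the chain that binds interferon gamma and recruits Jak1, was at 118 and 119 CPM in saline and 210 and 211 CPM in vanoxerine, a log2 fold change of 0.83 ± 0.04 (SE, adjusted p = 7.71e-05, edgeR). Ifngr2, the partner chain that brings Jak2, was at 31.3 and 30.0 CPM against 66.3 and 64.4 CPM, a change of 1.09 ± 0.06 (adjusted p = 8.49e-05, edgeR). The vanoxerine libraries of both genes were close together and well apart from saline. Ifnar1, the type I receptor chain bound by Tyk2, was at 52.3 and 53.3 CPM against 109 and 117 CPM, a change of 1.10 ± 0.06 (adjusted p = 7.23e-05, edgeR). Ifnar2, the high-affinity type I chain that binds Jak1, was at 45.6 and 48.5 CPM against 79.5 and 75.9 CPM, a change of 0.72 ± 0.06 (adjusted p = 0.000348, edgeR). Ifnar1, Ifnar2 and Ifngr2 lie in 1 cluster on chromosome 16, between 91372783 and 91565623, and Ifngr1 lies on chromosome 10. Ptprc, the pan-leukocyte phosphatase CD45, itself had a log2 fold change of 1.05, and of the 20 genes called higher those with a larger one were Irf5, Ifngr2 and Ifnar1.

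Since ligand and receptor moved apart, their ratio per transcript length shifted in every library. The TPM of Ifngr1 was 1.74 and 2.03 times that of Ifng in saline, and 8.92 and 7.59 times with vanoxerine. For Ifngr2 the ratio was 0.41 in both saline libraries, and with vanoxerine it was 2.72 and 2.30. By the TPM of all its transcripts, this chain moved from below its ligand to above it. In vanoxerine, 20.38 and 19.12 TPM of Ifngr2 came from Ifngr2-202, a transcript annotated as a target of nonsense-mediated decay. The coding transcript Ifngr2-201 went from 6.56 and 5.48 TPM to 16 and 15.5 TPM, and Ifng-201 from 24.75 and 27.96 TPM to 13.41 and 11.87 TPM. The order of these coding transcripts reversed too, with a smaller excess in vanoxerine. Between the 2 chains of the receptor, Ifngr1 exceeded Ifngr2 4.26 and 5.0 times in saline and 3.29 and 3.30 times in vanoxerine. By TPM, Ifngr1 was the highest and Ifnar2 the next of the 5 genes in both groups. Ifng held the third place in saline (29.7 ± 2.51 TPM, SD, n = 2) and the last in vanoxerine (14.2 ± 1.16 TPM, SD, n = 2).

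**Figure D2:**
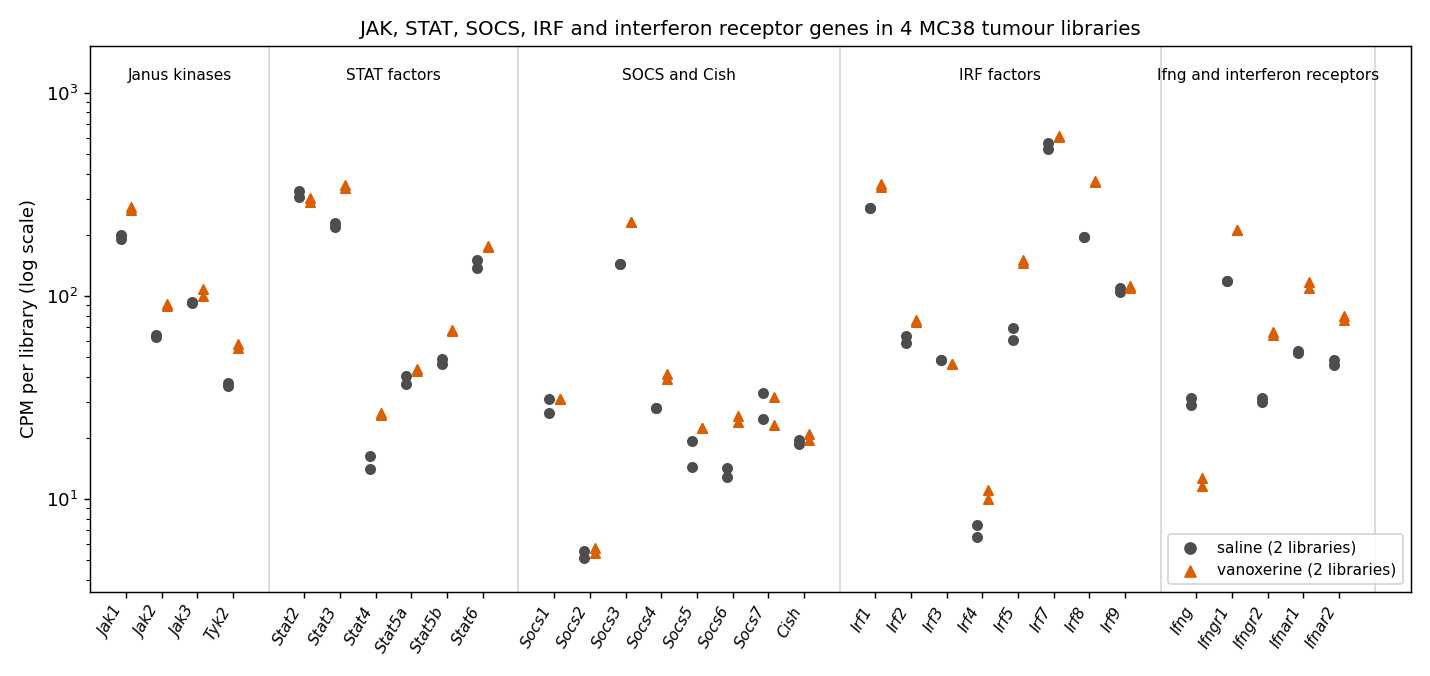
CPM of the 31 genes in each of the 4 libraries (log axis), with circles for saline and triangles for vanoxerine, ordered by role. The 4 receptor chains, Irf5 and Irf8 show 2 well separated pairs, Ifng shows the opposite order, and the pairs of Socs2 and Socs7 overlap.

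Of the kinases, 3 rose and Jak3 did not pass the test. Jak1, which serves nearly all receptors of the pathway, was at 199 and 191 CPM in saline and 266 and 275 CPM in vanoxerine, a log2 fold change of 0.47 ± 0.05 (SE, adjusted p = 0.000788, edgeR). Jak2, the kinase of the interferon gamma receptor and of the beta common and homodimeric receptors, was at 62.6 and 63.9 CPM against 89.6 and 90.9 CPM, a change of 0.51 ± 0.05 (adjusted p = 0.00062, edgeR). Tyk2, which pairs with Jak1 at the type I interferon receptor and with Jak2 at the IL-12 receptor, was at 36 and 37.1 CPM against 55.2 and 57.7 CPM, a change of 0.63 ± 0.06 (adjusted p = 0.000626, edgeR). No vanoxerine library of these 3 genes reached down to a saline one. Jak3, the kinase bound to the common gamma chain of lymphocyte receptors, was at 92.1 and 92.9 CPM against 99.9 and 108 CPM, with a change of 0.17 ± 0.06 and an adjusted p of 0.0617. It was called higher under 5 of the 16 alternatives. Among these were adjusted p under 0.1 and the fits without either saline library. Of the exon bases of Jak3, 404 belong to Insl3 as well, which held 223 to 375 reads in a library. By TPM the order of the kinases was the same in both groups, with Jak1 at 34.3 ± 2.12 TPM and 56.4 ± 0.86 TPM, then Jak3, Jak2 and Tyk2, and the values of neighbours in that order did not overlap.

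Among the STAT factors, Stat3, Stat4, Stat5b and Stat6 rose. Stat3, the factor of IL-6 and IL-10 signalling, was at 218 and 229 CPM in saline and at 351 and 341 CPM with vanoxerine, a log2 fold change of 0.63 ± 0.05 (SE, adjusted p = 0.000256, edgeR). Stat4, which carries IL-12 signals in T and NK cells, was at 16.2 and 14.0 CPM against 25.8 and 26.4 CPM, a change of 0.78 ± 0.10 (adjusted p = 0.00189, edgeR). Both genes had vanoxerine levels above every saline level.

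The paralogues Stat5a and Stat5b, which carry the signals of IL-2 and of granulocyte-macrophage colony-stimulating factor, did not give the same call. Stat5b was at 46.0 and 48.8 CPM against 66.9 and 68.3 CPM, a change of 0.51 ± 0.06 (adjusted p = 0.00115, edgeR). Stat5a was at 40.1 and 36.9 CPM against 43.6 and 42.6 CPM, with a change of 0.16 ± 0.07 and an adjusted p of 0.11, and it was called only without saline replicate 1. Whether the 2 changes differ was not tested. Stat5b, Stat5a and Stat3 lie side by side on chromosome 11, between 100780731 and 100939540. Stat5a and Stat3 share 72 exon bases on opposite strands, and the sources used here do not state whether the counting used strand, so reads there cannot be told apart.

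Stat6, the factor of IL-4 and IL-13, was at 138 and 150 CPM against 174 and 176 CPM, a change of 0.28 ± 0.06 (adjusted p = 0.0109, edgeR). Its call was lost under upper-quartile scaling (adjusted p = 0.104), with a transcript length offset (adjusted p = 0.0624) and without either vanoxerine library. Stat2, the partner of Irf9 in type I interferon signalling, was the highest STAT factor measured here by TPM in both groups. It was at 308 and 328 CPM against 291 and 302 CPM, with a change of -0.10 ± 0.05 and an adjusted p of 0.179. Upper-quartile scaling (-0.23) and the fit without saline replicate 1 (-0.14) called Stat2 lower, and on the TPM scale its change was 0.19, in the other direction. By TPM, Stat3 and Stat6 followed Stat2 in both groups. Stat4 was at 8.25 ± 0.50 TPM in saline, where its range overlapped that of Stat5a, and at 19.0 ± 0.27 TPM in vanoxerine, above Stat5a and Stat5b.

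The feedback inhibitors split, with Socs3, Socs4 and Socs6 higher and 5 genes not called. Socs3, which blocks signalling at gp130 and is switched on by Stat3, was at 143 and 144 CPM in saline and at 230 CPM in both vanoxerine libraries, a log2 fold change of 0.68 ± 0.04 (SE, adjusted p = 0.000145, edgeR). The replicates of Socs3 lay within 1 CPM of each other, and the groups were far apart. The TPM of Socs3 was 1.14 and 1.16 times that of Stat3 in saline and 1.25 and 1.31 times in vanoxerine. Socs3 was the highest of the 8 by TPM in both groups, at 59.6 ± 2.45 TPM and 116 ± 0.99 TPM, and Socs1 came next at 8.23 ± 0.67 TPM and 10.5 ± 0.16 TPM, although in saline its range overlapped that of Cish.

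Socs4, a family member with a long N-terminal region, was at 28.2 and 28 CPM against 41.1 and 39.0 CPM, a change of 0.51 ± 0.07 (adjusted p = 0.00203, edgeR). Socs6, which acts on receptor tyrosine kinases, was at 12.8 and 14.2 CPM against 25.5 and 23.9 CPM, a change of 0.87 ± 0.10 (adjusted p = 0.00115, edgeR). With a transcript length offset the change of Socs6 was 0.54 and its adjusted p 0.0667, so the call was lost there. Socs5, related to Socs4, was at 19.3 and 14.4 CPM against 22.4 and 22.3 CPM, with a change of 0.41 ± 0.15 and an adjusted p of 0.077. The saline replicates of Socs5 were far apart: its change was 0.63 without saline replicate 1 and 0.22 without saline replicate 2. Of the alternatives that keep every library, 4 called Socs5 higher, among them adjusted p under 0.1.

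Socs1, the inhibitor that binds Janus kinases at interferon receptors, was at 26.4 and 30.9 CPM against 31.1 and 31 CPM, with a change of 0.12 ± 0.09 and an adjusted p of 0.378. It was called higher only without saline replicate 2, where its change was 0.25. Cish, a target of Stat5 at cytokine receptors, was at 19.5 and 18.6 CPM against 19.6 and 20.9 CPM, a change of 0.09 ± 0.08 that turned to -0.52 with a transcript length offset, uncalled in both. Socs2, a feedback inhibitor of growth hormone signalling, was at 5.55 and 5.10 CPM against 5.42 and 5.75 CPM, and Socs7 at 33.2 and 24.9 CPM against 23.1 and 31.8 CPM. For Socs2 and Socs7 the spread between replicates was as wide as the difference between groups. Socs7 was called lower only without saline replicate 2, with a change of -0.26.

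Of the IRF factors, Irf5 and Irf8 rose most. Irf5, a factor of inflammatory macrophages, was at 60.8 and 69.6 CPM in saline and 150 and 146 CPM in vanoxerine, a log2 fold change of 1.18 ± 0.07 (SE, adjusted p = 0.000148, edgeR). Irf8, which directs the development of monocytes and dendritic cells, was at 194 and 195 CPM against 365 and 366 CPM, a change of 0.91 ± 0.04 (adjusted p = 4.95e-05, edgeR). The vanoxerine libraries of both were above every saline library. Per Ptprc, the TPM of Irf8 was 1.05 and 0.94 times in saline and 0.87 and 0.91 times in vanoxerine. The macrophage markers given above moved in the same direction. So did the dendritic cell markers, of which 5 of 7 were called higher (median log2 fold change 1.7), with a summed level of 43.5 and 50.1 CPM in saline and 105 and 106 CPM in vanoxerine. The part of either cell type in the change of Irf5 and Irf8 was not tested. Irf5 lies at chr6:29526625-29541871 and Irf8 at chr8:120736358-120756694 (GRCm38). Of the 2905 exon bases of Irf5, 411 overlap Tnpo3 on the other strand, which held 6917 to 7909 reads in a library.

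Irf1, a primary target of interferon gamma, rose as well. It was at 270 and 271 CPM against 344 and 355 CPM, a change of 0.37 ± 0.04 (adjusted p = 0.00127, edgeR). Irf2, its antagonist, was at 58.3 and 63.6 CPM against 74.3 and 76.4 CPM, a change of 0.31 ± 0.06 (adjusted p = 0.0107, edgeR). Irf4, a factor of lymphocytes and alternatively activated macrophages, was low, at 7.41 and 6.51 CPM against 9.97 and 11 CPM, a change of 0.59 ± 0.13 (adjusted p = 0.0175, edgeR). Irf2 and Irf4 were each called under 12 of 16 alternatives. Both lost their call with a transcript length offset (adjusted p = 0.0965 and 0.488) and without either vanoxerine library. Irf2 also lost it under upper-quartile scaling, and Irf4 on the TPM scale.

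The 3 factors most tied to type I interferon had log2 fold changes between -0.06 and 0.16. Irf7, which is induced by type I interferon and amplifies it, was the highest IRF factor by TPM in both groups. It was at 527 and 566 CPM against 613 and 604 CPM, a change of 0.16 ± 0.05 at the edge of the threshold (adjusted p = 0.0489, edgeR). Irf7 was called under 7 of 16 alternatives, and without either vanoxerine library it was not called. Irf3, the constitutive sensor-activated factor, was at 48.1 and 48.2 CPM against 46.0 and 46.4 CPM, with a change of -0.06 ± 0.05 and an adjusted p of 0.428. Upper-quartile scaling called Irf3 lower (-0.20), and the TPM scale gave a change of 0.18. Irf9, the DNA-binding partner of Stat2, was at 109 and 105 CPM against 109 and 111 CPM, with a change of 0.04 ± 0.05 and an adjusted p of 0.545. Among the IRF factors, Irf5 moved from the sixth to the fourth place by TPM, from 25.9 ± 0.94 TPM to 71.6 ± 2.23 TPM. In saline its range overlapped that of Irf2.

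Salmon divides the reads of a gene among its annotated transcripts by estimate, and these shares are given as descriptions. Ifnar2 makes a long transcript with a coding sequence of 1539 bases (Ifnar2-201, 3047 bases) and a short one with 744 coding bases (Ifnar2-203, 1099 bases). The short transcript held 88.8% and 76.0% of the gene's TPM in saline and 61.3% and 53.4% in vanoxerine. The long one held 11.2% and 7.59% against 13.5% and 13.3%. A 384-base transcript with an incomplete end, Ifnar2-205, took 0% and 12.6% in saline and 21.4% and 31.4% in vanoxerine. In TPM the long transcript went from 3.76 and 3.11 to 10.4 and 10.5, so the full-length coding form was higher in both vanoxerine libraries.

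For Ifngr2, a 534-base transcript annotated as a target of nonsense-mediated decay (Ifngr2-202) took 48.9% and 41.8% of the TPM in saline and 56.0% and 55.2% in vanoxerine. The full coding transcript Ifngr2-201 still went from 6.56 and 5.48 TPM to 16 and 15.5 TPM. For Stat4, a 607-base transcript with a retained intron (Stat4-204) held 45.4% and 49.2% against 54.6% and 53.0%, and the coding transcript Stat4-202 held 44.3% and 43.1% against 44.7% and 45.2%. Irf5-201 and Irf5-202 encode the same 1491 bases: the first held 60% and 70.8% in saline but 81.9% and 77.2% with vanoxerine, and the second 33.7% and 26.2% against 10.9% and 16.4%. Stat5b-202 held 0.27% and 5.83% in saline and 19.3% and 18.5% in vanoxerine, with the same 2358 coding bases as Stat5b-201. Short transcripts weigh heavily in TPM, and for Cish a 371-base non-coding transcript held 48.0% of the TPM in saline replicate 1 and 0% in the other 3 libraries.

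**Figure D3:**
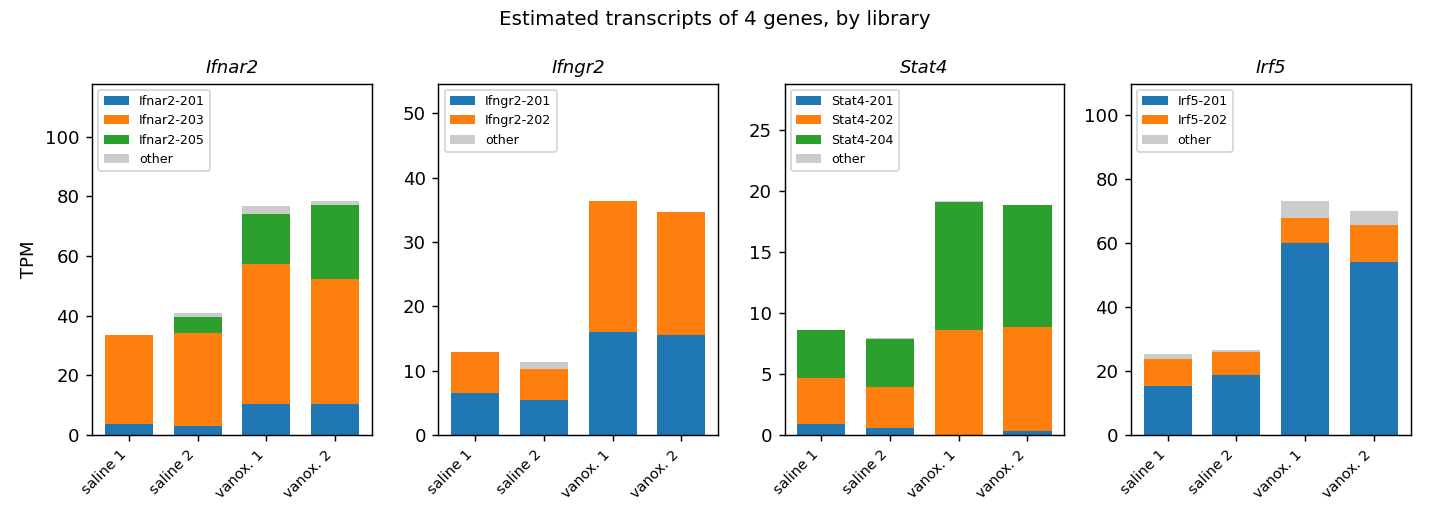
TPM of the annotated transcripts of Ifnar2, Ifngr2, Stat4 and Irf5, stacked for each library (grey: all other transcripts). In Ifnar2 the short coding transcript Ifnar2-203 is the largest block in every library. Ifnar2-205 is larger in the vanoxerine libraries than in saline, and in Irf5 nearly all of the added TPM is Irf5-201.

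Other parts of the pathway were counted in lists that share some genes, such as Il4ra, Pim1 and Osm. The cytokine receptors that use these kinases mostly rose: of 30 tested in 3 lists, 19 were called higher and 3 lower, against 21.0% and 15.9% of all genes. The IL-10, IL-12 and beta common receptors gave 9 of 10 higher, with a median log2 fold change of 0.67, and Il5ra, at 0.33 and 0.17 CPM on average, was not called. Csf2rb, the shared signalling chain of the GM-CSF, IL-3 and IL-5 receptors, had a change of 1.33. Csf2rb2, Csf2ra and Il10rb had changes of 1.51, 0.97 and 0.80. The common gamma chain list gave 6 of 9 higher (median 0.64), and Il9r, Il13ra1 and Il15ra were not called. There the IL-4 receptor chain Il4ra rose from 86.1 ± 0.40 CPM to 247 ± 0.34 CPM (SD, n = 2), a change of 1.52 ± 0.04 (adjusted p = 1.32e-05, edgeR), and Il21r, Il2rg and Il2rb had changes of 1.27, 0.65 and 0.57. The gp130 and homodimeric receptors were mixed, with 4 of 11 higher and 3 lower: Lifr, Il6ra and the shared chain Il6st had changes of 1.52, 0.76 and 0.48, and the oncostatin M receptor chain Osmr one of -0.77. On the TPM scale limma-trend did not call the 3 lower genes, Osmr, Lepr and Epor, and with a transcript length offset 2 genes of the list were called higher and 1 lower.

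Of 18 cytokines tested, 3 were called higher and 3 lower, which is 16.7% each way and near the 21.0% and 15.9% of all genes. The median change of 0.10 became -0.03 under upper-quartile scaling. Without saline replicate 2, 6 were called higher, and without either vanoxerine library 1 was called lower. Il12b, a subunit of IL-12 and IL-23, rose from 0.33 ± 0.07 CPM to 2.96 ± 0.51 CPM (SD, n = 2, adjusted p = 0.00117, edgeR), and Il10 had a change of 0.99. Il23a, the subunit that pairs with Il12b in IL-23, had a change of -1.23, and Osm, oncostatin M, one of -0.33. Of 13 other negative regulators 8 were called higher and 1 lower, or 61.5% and 7.69%. The phosphatases Ptprc and Ptpn6 (SHP-1) had changes of 1.05 and 1.04 and the ubiquitin ligase Cbl 0.80. The 1 that fell was Usp18, which restrains the type I interferon receptor and is itself induced by interferon, from 295 ± 4.21 CPM to 181 ± 0.55 CPM (a change of -0.71, adjusted p = 0.000123, edgeR).

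Of 14 interferon gamma targets, 9 were called higher and 3 lower, or 64.3% and 21.4%, beside 21.0% and 15.9% of all genes. The median change of 0.21 was 0.07 under upper-quartile scaling and 0.42 on the TPM scale. The guanylate-binding protein gene Gbp2, Cd274 (PD-L1), the chemokine Cxcl9 and Nos2 had changes of 0.85, 0.91, 0.91 and 0.66, while the 3 called lower were the chemokines Cxcl10 (-0.51) and Cxcl11 (-1.05) and Ido1 (-0.44). The annotation used here lists Cxcl11 as a polymorphic pseudogene, not as a protein-coding gene. On the TPM scale limma-trend did not call Cxcl10 (adjusted p = 0.0655) or Ido1 (adjusted p = 0.34), and with a transcript length offset the change of Cxcl9 was 1.71. Of 16 type I interferon targets, 1 was called higher and 8 lower, with a median of -0.19. Bst2, Ifi44, Isg15 and Oas2, all antiviral effectors, had changes of -0.65, -0.62, -0.58 and -0.53. The direction of this list depends on the scale: on log2(TPM + 1), limma-trend called 5 higher and 3 lower, and the median was 0.01. Over all genes limma-trend called 21.8% higher and 4.64% lower on that scale. The chains Ifnar1 and Ifnar2 were called higher under each of the 16 alternatives.

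Target lists of single STAT factors also did not move as 1 block, beside 21.0% higher and 15.9% lower among all genes. Near these shares were the 27.3% called higher in the Stat3 list and the 14.3% and 20% called lower in the Stat5 and Stat6 lists. Of 11 Stat3 targets 3 were called higher and 6 lower (median -0.46). Il4ra was higher and the acute-phase and matrix genes Saa3 (-1.66), Lcn2 (-1.65) and Timp1 (-0.72) were lower, while Stat3 and Socs3 rose. On the TPM scale the median of this list was -0.17. Fibroblast markers, at a summed 491 and 482 CPM in saline and 249 and 248 CPM with vanoxerine, and neutrophil markers, at 879 and 919 CPM against 509 and 501 CPM, were lower beside these genes, and their part was not tested. Of 7 Stat5 targets 4 were called higher and 1 lower (median 0.22), with Bcl6 at 0.71, Il2ra at 0.62, Pim1 at 0.34 and Osm at -0.33. That median was 0.08 under upper-quartile scaling and 0.60 on the TPM scale, where Osm was at -0.09 and not called by limma-trend (adjusted p = 0.292). Of 10 Stat6 targets tested 6 were called higher and 2 lower, and the median of 1.28 was 0.61 on the TPM scale. Chil3 (-0.22) and Fn1 were lower, Mgl2 and Ccl24 were not called, and Retnla and Ccl17 were not tested. With a transcript length offset Ccl22, Pdcd1lg2 and Chil3 lost their calls (adjusted p = 0.522, 0.052 and 0.442, edgeR). The macrophage mannose receptor Mrc1 rose from 23.8 ± 1.90 CPM to 278 ± 2.82 CPM and arginase 1, Arg1, from 40.6 ± 2.39 CPM to 234 ± 7.07 CPM (SD, n = 2), changes of 3.55 and 2.53, while the fibronectin gene Fn1 had one of -0.62. Mrc1 is also 1 of the 10 macrophage markers.

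**Figure D4:**
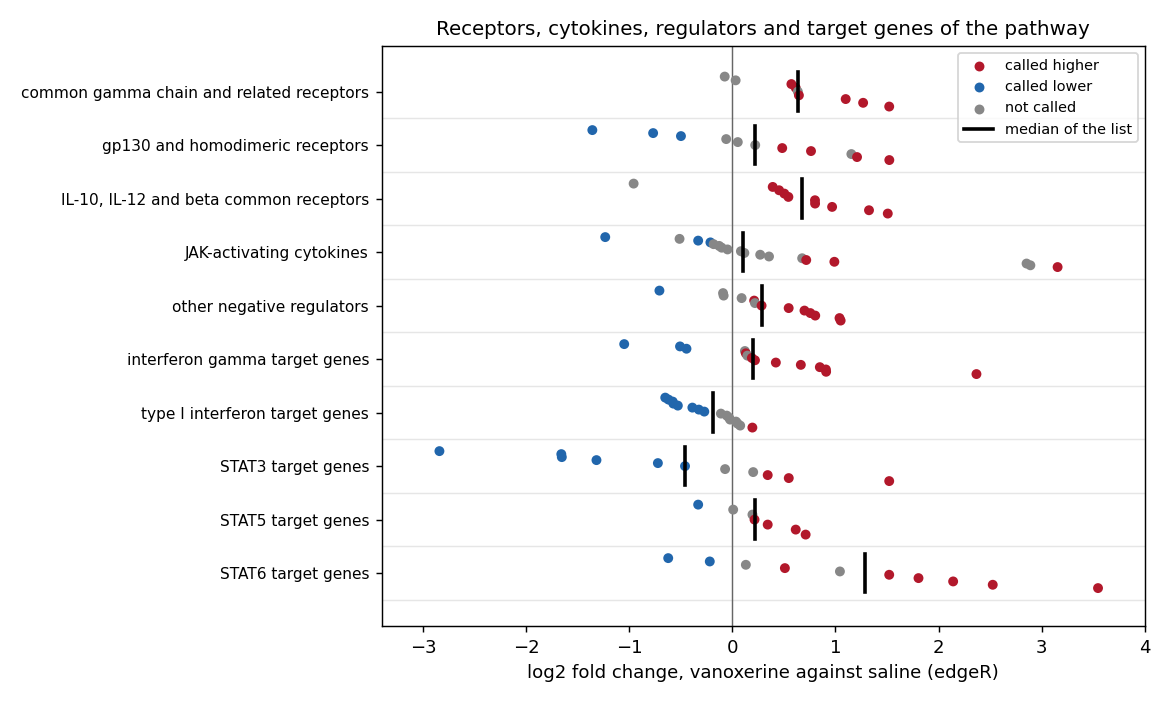
Log2 fold change (edgeR) of the tested genes of 10 lists of receptors, cytokines, negative regulators and target genes, 1 point per gene, coloured by call, with the list's median as a black bar. Receptor lists lie mostly to the right of 0, type I interferon and Stat3 targets mostly to the left, and the cytokines spread to both sides.

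The authors' deposited table of the same contrast lists all 31 genes and gives 20 higher and 1 lower at its adjusted p under 0.05, beside 20.3% higher and 14.8% lower among its 16621 genes with an adjusted p. The call was the same as here for 29. The authors' deposited table calls Socs5 higher, with a log2 fold change of 0.48 and an adjusted p of 0.0343. For Irf4 the authors' deposited table gives 0.18 and an adjusted p of 0.531, against the call made here. Which libraries entered that table is not stated.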

How the data were processed

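RNA-seq libraries from MC38 tumours, 2 saline and 2 vanoxerine, were analysed (TruSeq RNA v2, NextSeq 500, per the labels' protocols). Per the submitters' processing notes, fastp, Salmon 1.3.0 and DESeq2 were used with GRCm38. Annotation and strand setting: not given in the sources used here. Per transcript, the authors deposited an estimated count, a TPM and an effective length, and a table with a log2 fold change, its standard error and an adjusted p-value. The 4 FPKM columns of that table match no sample and were not used.

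Estimated counts were summed per gene with GENCODE M21 (99.56% to 99.63% of reads) and rounded. They were tested with edgeR 4.0.16 in R 4.3.3 (TMM, minimum count 10, minimum total 15, quasi-likelihood test, Benjamini-Hochberg over all genes). CPM uses the TMM-scaled library size, and SE comes from the F statistic. Alternatives used other scalings and filters, limma 3.58.1, DESeq2 1.42.0, log2(TPM + 1), a length offset, a replicate block and each library left out. The remaining alternative was the main fit called at adjusted p under 0.1. The test was checked on simulated data. With 2 against 2 libraries no exact two-sided permutation p can fall below 1 in 3. The members and lists were chosen with earlier results of these data known. Named are all members, and of each list up to 4 genes with the smallest p. Genes of a list that were called lower, not called, not tested or lost a call, and markers beside a result, were also named after their values were seen.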

Additional observations from a re-analysis of the deposited data

How the results depend on the processing

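Over 16 alternatives no member called here changed direction. Of the type I interferon targets, Oasl1, Ifit1, Rsad2 and Cmpk2, uncalled here, were each called higher under 1 alternative and lower under at least 1 other. The number of members called higher ran from 15 (transcript length offset) to 23. The number called lower was 3 under upper-quartile scaling and 1 to 2 when 1 library was left out. Of all genes, 6916 were called, 4309 with the transcript length offset, 9708 without saline replicate 1, 9595 without saline replicate 2, 3235 without vanoxerine replicate 1 and 3107 without vanoxerine replicate 2, a range of 3107 to 9708. In a fit that leaves 1 library in a group, that library is taken to vary as much as those of the other group, and the cause of these shifts was not tested. With the replicate number as a block, 20 members were called higher and 1 lower, Irf7 losing and Socs5 gaining its call, and 6391 genes were called in all. Deviations of equally numbered libraries had a correlation of -0.01 over 9871 genes, so the numbers show no pairing. With 2 libraries per group, a member that was not called is not shown to be unchanged.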
